A study of Homo sapiens with 26 samples.

Results

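The 10 genes described here encode proteins of the cornified envelope and the suprabasal layers of stratified squamous epithelium: IVL, SPRR1A, SPRR1B, SPRR2A, SPRR2D, SPRR3, TGM1, CNFN, KRT13 and KRT4. They were taken by symbol, and all 10 were found among the 26485 genes of each of the 5 deposited RNA-seq tables. In the stratified lining of the esophagus, basal cells divide and their daughters move towards the surface, where they stop dividing and replace basal keratins with the pair KRT4 and KRT13. Near the surface, the soluble precursors involucrin (IVL), small proline-rich proteins (SPRR genes) and cornifelin (CNFN) are cross-linked beneath the plasma membrane by transglutaminases such as TGM1. The transcription factor p63, the product of TP63, is known for keeping the basal state and for its role in the commitment to the squamous lineage.

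The 26 libraries came from 3 human esophageal squamous cell carcinoma (ESCC) lines, KYSE180, TE6 and KYSE150, in 11 groups. KYSE180 was transfected with a control siRNA (siCont) or an siRNA against BRDT (siBRDT), a bromodomain protein normally found in the testis, with 3 libraries of each, and, in a separate experiment, with siCont or an siRNA against TP63 (siTP63), with 2 of each. TE6 received siCont, siBRDT or siTP63 (2 libraries of each, so that both comparisons share the same controls), and KYSE150, described in the study as lacking endogenous BRDT, received siCont or siTP63 (2 of each). KYSE150 cells with BRDT over-expression from an electroporated plasmid (BRDT-OE) and their control-vector cells had 3 libraries each. RNA of the siRNA groups was taken after 48 hours. The sources used here do not say whether the replicates were separate cultures, which siRNA went into which library, or what share of cells took up the plasmid. P-values therefore measure only the spread between these libraries, which may be technical.

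The libraries held from 7582089 to 19372441 reads, so that a count of 3 reads, taken as the floor, equalled between 0.155 and 0.396 reads-per-million (RPM) of a library. Intervals and floors built on reads cover counting error only. TE6 siBRDT replicate 1 stood apart, with a read in 20995 genes against 16458 to 17569 in the other TE6 libraries, and KYSE180 siBRDT replicate 1 had a read in 18972 genes against 17187 to 17778 in the other libraries of its experiment. Calls of the 10 genes, and of other genes printed with their values, that rest on either are given without it as well. Counts within single lists of differentiation genes use all libraries. BRDT fell in both siBRDT comparisons (log2 fold change -2.75 in KYSE180 and -2.23 in TE6, and -2.63 and -2.35 without those libraries) and rose with BRDT-OE (10.60), and TP63 fell with siTP63 in KYSE180 (-1.70) and TE6 (-4.45), while in KYSE150 the TP63 value of -2.34 had an adjusted p of 0.082. TP63 was also lower after siBRDT, by a log2 fold change of -0.58 in KYSE180 and -1.15 in TE6 (-0.51 and -1.23 without those libraries). In KYSE150 siCont, BRDT had 41 reads in replicate 1 (3.55 RPM) and 7 in replicate 2 (0.557 RPM). After siTP63 in KYSE150 it had 0 and 8 reads. Squamous markers were present in every group (summed 1100 to 10550 RPM over 10 genes), while the summed level of 12 columnar epithelium markers was at most 33.3 RPM, most of it CDX2 in KYSE180 and TE6.

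The deposited values are normalised counts, each library's read counts divided by a size factor set within its table, so levels in different tables were normalised separately. A gene was tested in a table where its mean value was at least 10. It was called when limma gave a Benjamini-Hochberg adjusted p under 0.05 over all genes tested and the fold change, on the log2(value + 1) scale, was 0.5 or more in either direction. Under this filter 6 members were tested in both KYSE180 experiments, with IVL, SPRR1A, SPRR2A and SPRR2D under 10. In TE6, SPRR3 was under 10 as well, leaving 5. In both KYSE150 tables IVL, all 5 SPRR genes and KRT4 were under 10, leaving TGM1, CNFN and KRT13.

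IVL and the 5 SPRR genes lie together on chromosome 1 in hg38, from the start of IVL (chr1:152908546-152911886, plus strand) to the end of SPRR2A (chr1:153056120-153057512, minus strand). KRT13 is at chr17:41500981-41505705 and KRT4 at chr12:52806549-52814116, TGM1 is at chr14:24249114-24264432 and CNFN at chr19:42387019-42390297, these 4 all on the minus strand. Sequence of the 250 bases upstream of the annotated start was at hand for 7 of the 10 genes (RefSeq, GRCh38.p14): IVL, SPRR1A, SPRR1B, SPRR2A, SPRR3, KRT4 and CNFN. It is shown for 4 of them because they set the scarce envelope precursors beside KRT4, the tested member with the largest rises after siTP63, and the short CNFN transcript. Capitals mark the AP-1 motif TGANTCA on either strand and the TATA motif TATAAN as read 5′ to 3′; the motifs do not overlap here.
IVL, chr1:152908296-152908545, plus strand: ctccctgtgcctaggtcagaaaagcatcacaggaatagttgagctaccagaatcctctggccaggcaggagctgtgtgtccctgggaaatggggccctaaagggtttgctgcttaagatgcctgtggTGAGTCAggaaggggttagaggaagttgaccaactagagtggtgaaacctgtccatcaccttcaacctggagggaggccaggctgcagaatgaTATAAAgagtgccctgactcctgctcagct
SPRR1B, chr1:153030953-153031202, plus strand: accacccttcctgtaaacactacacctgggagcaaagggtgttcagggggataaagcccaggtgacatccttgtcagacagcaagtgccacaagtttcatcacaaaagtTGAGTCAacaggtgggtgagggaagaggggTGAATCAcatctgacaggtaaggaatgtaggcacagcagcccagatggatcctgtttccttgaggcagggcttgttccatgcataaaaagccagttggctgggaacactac
KRT4, chr12:52814117-52814366, minus strand: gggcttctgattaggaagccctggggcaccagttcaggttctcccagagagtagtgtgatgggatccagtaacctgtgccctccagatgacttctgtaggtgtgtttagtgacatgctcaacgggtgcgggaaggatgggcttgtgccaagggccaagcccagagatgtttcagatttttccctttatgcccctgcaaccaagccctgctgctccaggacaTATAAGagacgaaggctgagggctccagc
CNFN, chr19:42390298-42390547, minus strand: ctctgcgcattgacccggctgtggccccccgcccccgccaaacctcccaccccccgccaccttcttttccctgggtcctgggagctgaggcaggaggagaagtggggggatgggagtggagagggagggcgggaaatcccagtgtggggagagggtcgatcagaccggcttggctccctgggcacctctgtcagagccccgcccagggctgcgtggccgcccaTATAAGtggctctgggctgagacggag
TGANTCA occurred in 5 of the 7 upstream sequences, those of IVL and the 4 SPRR genes, and in 6.57% of all 35116 promoters searched over the same 250 bases on both strands. In IVL it began 123 bases before the start, and SPRR1B held it at 141 and again at 111 bases before the start. Searched on both strands, TATAAN occurred in 6 of the 7, all but SPRR1B, and in 18.9% of all promoters. The binding motif of the p53 family, searched as a single decamer of its usual consensus on both strands, occurred in SPRR1B alone of the 7 and in 5.57% of all. These are matches of letters and no evidence of binding.

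In the control libraries the order of the 10 genes, compared per length as RPM divided by the length of the longest transcript in kilobases (RPKM), was led by the keratins in KYSE180 and TE6 and by CNFN in KYSE150. KRT13 stood at 669 ± 60.7 RPKM (SD, n = 3) in the KYSE180 siCont libraries of the BRDT experiment, 3549 ± 436 (n = 2) in those of the TP63 experiment and 378 ± 25.8 (n = 2) in TE6 siCont. KRT4 followed at 8.76 ± 0.71, 23.9 ± 6.25 and 10.7 ± 1.45 RPKM, then CNFN at 6.11 ± 0.65, 19.9 ± 3.29 and 7.67 ± 0.075, and TGM1 at 2.99 ± 0.15, 7.24 ± 1.06 and 4.64 ± 0.28. KRT4 and CNFN overlapped in the KYSE180 TP63 experiment, and TGM1 and SPRR1B in the KYSE180 BRDT experiment. The other neighbours among these 4 genes did not overlap. In KYSE150 the order was CNFN, TGM1 and KRT13, at 9.17 ± 2.63, 1.32 ± 0.056 and 1.18 ± 0.20 RPKM in siCont (n = 2) and 3.88 ± 0.69, 2.0 ± 0.41 and 0.995 ± 0.35 in the vector controls (n = 3), with TGM1 and KRT13 overlapping in siCont. KRT4 in KYSE150 was at 0.061 ± 0.086 and 0.091 ± 0.050 RPKM. Among the other members, SPRR1B was the highest in KYSE180 and TE6, with means of 1.83 ± 1.09, 1.53 ± 0.75 and 1.74 ± 1.04 RPKM and single libraries between 0.874 and 3.02, and overlapped SPRR3 in KYSE180 and SPRR2A in TE6.

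**Figure D1:**
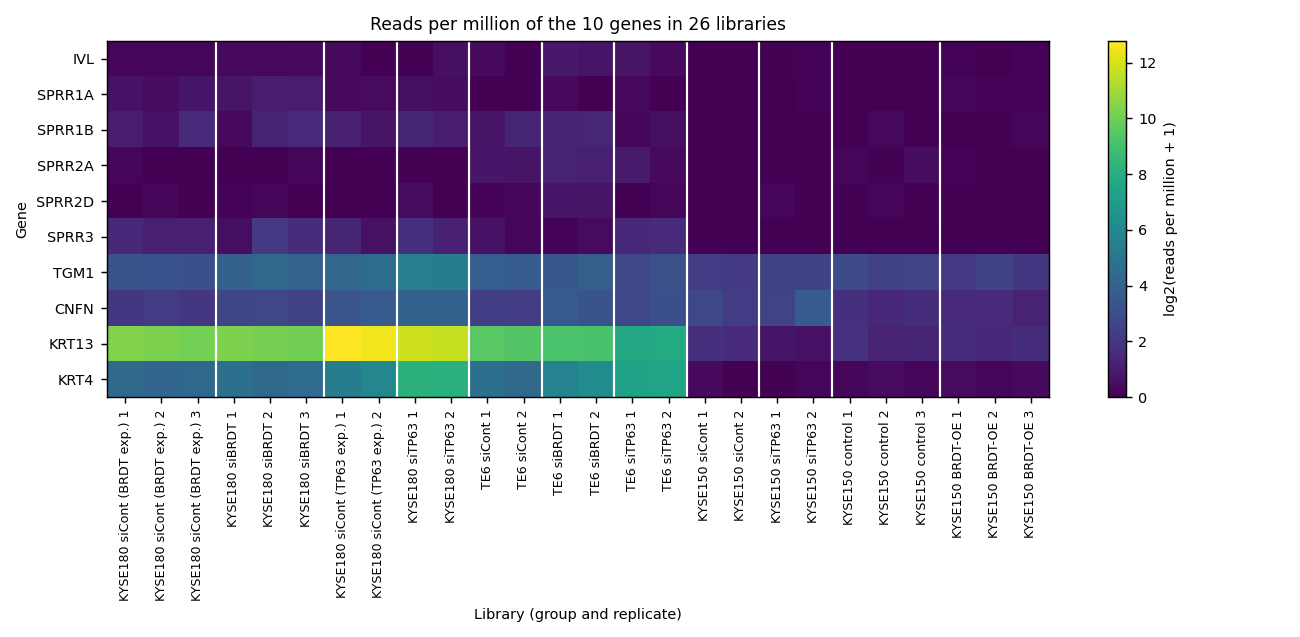
Heat map of the 10 genes (rows) in the 26 libraries (columns, white lines between groups), coloured by log2(RPM + 1). KRT13 was the brightest row in KYSE180 and TE6 and lay between 0.568 and 2.56 RPM in KYSE150, while IVL and the SPRR genes were dark in every library.

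Control libraries of 1 line also differed between experiments. In KYSE180, KRT13 was at 1228 RPM in the siCont libraries of the BRDT experiment and 6512 RPM in those of the TP63 experiment, 5.30 times as high, and TGM1, CNFN and KRT4 were 2.42, 3.26 and 2.73 times as high. TP63 itself was 5.37 times as high in the first set as in the second (892 against 166 RPM). No test was run between tables, and these gaps are descriptions.

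KRT13, the type I keratin of esophageal suprabasal cells, fell after siTP63 in KYSE180 and TE6 and was not called after siBRDT in either line. In bulk RNA, fewer cells of a type and less RNA per cell cannot be told apart. In KYSE180 its normalised counts were 122498 and 98498 in siCont and 44088.5 and 37228 in siTP63, with no overlap (log2 fold change -1.44 ± 0.23 SE, adjusted p = 6.3e-06). In RPM the same libraries were at 7078 and 5946 in siCont and 3650 and 3244 in siTP63. The ratio pooled over the libraries of a group was 0.54, a smaller fall, so the size depends on the scaling. In TE6 they were 8234 and 7427 in siCont and 2393 and 2508 in siTP63, both siTP63 libraries lying below both controls (-1.67 ± 0.092, adjusted p = 7.3e-08). These calls held in all 13 alternative settings in KYSE180 and all 14 in TE6. In KYSE150, where the gene was near its lowest, KRT13 stood at 41.6 and 28.3 in siCont and 9.14 and 9.32 in siTP63. It passed the filter in that experiment only through siCont (mean 34.9 against 9.23 in siTP63). The groups did not overlap, but the log2 fold change of -1.79 ± 0.41 was not called (adjusted p = 0.14, 95% interval -2.81 to -0.77). In that comparison no gene of 12335 passed, with 2194 at an unadjusted p under 0.05, and over all genes edgeR gave 0 calls and DESeq2 201 up and 261 down. With a trend over transcript length and GC content removed, KRT13 was called there (-1.81, adjusted p = 0.049), among 309 genes up and 453 down of 11376.

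After siBRDT, KRT13 values in KYSE180 were 12864, 12036 and 10963 against 14764, 13990 and 12171 in siCont, and the groups overlapped (log2 fold change -0.19 ± 0.079, adjusted p = 0.053). In TE6 they were 6802 and 6854 against 8234 and 7427, without overlap, at -0.20 ± 0.092 (adjusted p = 0.099). With the length and GC trend removed the TE6 value was -0.63 and called (adjusted p = 9.2e-05). Without the libraries that stood apart, the values were -0.24 in KYSE180 (adjusted p = 0.015, under the limit on size) and -0.19 in TE6, neither called. With BRDT-OE in KYSE150, KRT13 was at 34.4, 29.6 and 35.2 against 37.9, 20.8 and 23.0 in the controls, overlapping and not called (0.31 ± 0.26, adjusted p = 0.33). Of the 50-base stretches of the KRT13 transcript in GENCODE, 83.4% occur in no other gene. The rest are shared with a lncRNA on the other strand and with KRT15, and the sources used here do not state the strand setting of the counting.

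KRT4, the type II partner of KRT13, moved the opposite way. It rose after siTP63 in KYSE180, from 720 and 1003 in siCont to 3647 and 3178 (log2 fold change 2.0 ± 0.16 SE, adjusted p = 1.1e-10), and in TE6 from 283 and 232 to 1860 and 1965 (2.90 ± 0.16, adjusted p = 7.6e-08). In RPM the KYSE180 libraries were at 41.6 and 60.6 in siCont and 302 and 277 after siTP63, a larger rise (pooled ratio 5.48). All siTP63 libraries lay above all controls of their line, and both calls held in every alternative setting run. After siBRDT, KRT4 rose in TE6, to 601 in replicate 1 and 872 in replicate 2 (1.5 ± 0.16, adjusted p = 2.2e-05), both above the controls. Without replicate 1, the library that stood apart, it was 1.76. In KYSE180 it was at 268, 215 and 216 after siBRDT against 224, 191 and 209 in siCont, and the groups overlapped (0.16 ± 0.11, adjusted p = 0.23). In KYSE150 KRT4 had at most 6 reads in a library and was not tested.

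**Figure D2:**
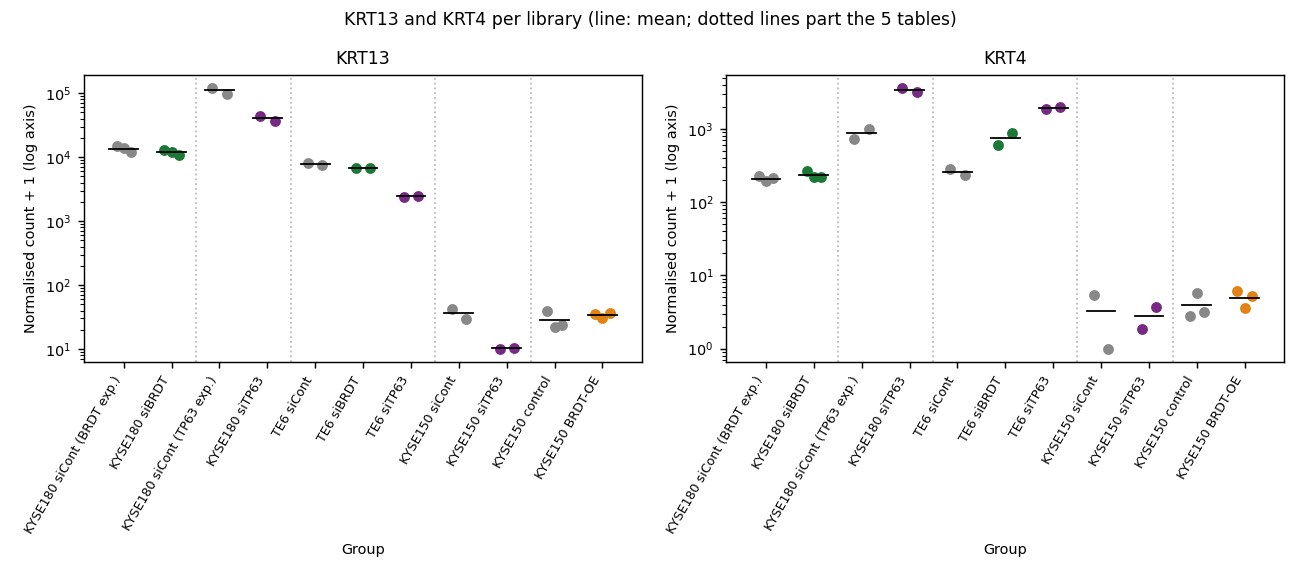
KRT13 (left) and KRT4 (right): normalised count + 1 on a log axis for each library (points), with group means (lines) and dotted lines between separately normalised tables. Within KYSE180 and TE6 the siTP63 points (purple) lie below the controls (grey) for KRT13 and above them for KRT4.

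The ratio of KRT13 to KRT4 within a library, per length, does not depend on a size factor. In KYSE180 it was 198 and 115 in siCont and 14.1 and 13.7 after siTP63. In TE6 it was 33.9 and 37.4 in siCont, 13.2 and 9.17 after siBRDT, and 1.49 and 1.5 after siTP63. In the KYSE180 BRDT experiment it lay between 68.0 and 85.3 in siCont and between 56.0 and 65.2 after siBRDT. In each of these comparisons the ratio was lower in all treated libraries than in all controls. No test was run on the ratio itself; it restates the counts above on a scale free of normalisation.

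TGM1, the membrane-bound transglutaminase that cross-links the precursors, rose in KYSE180 after either knockdown and fell in TE6 after siTP63. After siBRDT in KYSE180 it was at 148, 198 and 161 against 95.6, 92.2 and 85.3 in siCont, without overlap (log2 fold change 0.88 ± 0.13 SE, adjusted p = 3.9e-05). This call held in all 16 alternative settings, including that without siBRDT replicate 1 (0.97). After siTP63 in KYSE180 it was at 518 and 475 against 308 and 363 (0.57 ± 0.15, adjusted p = 0.0029), and here the call was lost without siCont replicate 1 (0.45, under the limit on size) or siTP63 replicate 1 (0.50, adjusted p = 0.063). In RPM the KYSE180 libraries were at 42.9 and 41.4 after siTP63 against 17.8 and 21.9 in siCont, a larger rise (pooled ratio 2.08). In TE6, TGM1 was at 67.0 and 88.8 after siTP63 against 150 and 137 in siCont, both lower (-0.89 ± 0.21, adjusted p = 0.0037). The call was lost without siCont replicate 1 (-0.82, adjusted p = 0.051) or siTP63 replicate 1 (-0.69, adjusted p = 0.060). After siBRDT in TE6 the values of 121 and 170 lay on both sides of the controls (-0.0030 ± 0.21, adjusted p = 0.99, 95% interval -0.46 to 0.45), and in this comparison the sign turned with the scaling. In KYSE150 TGM1 was not called after siTP63 (64.8 and 74.5 against 63.9 and 51.8, without overlap, 0.27 ± 0.29, adjusted p = 0.68) or with BRDT-OE (56.7, 77.8 and 50.6 against 100.3, 68.9 and 76.7, -0.41 ± 0.20, adjusted p = 0.12).

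CNFN, cornifelin, a small envelope protein, rose after siBRDT in both lines and after siTP63 in TE6. In KYSE180 the siBRDT libraries held 56.4, 57.9 and 46.1 against 34.3, 40.8 and 33.3 in siCont, without overlap (0.55 ± 0.18 SE, adjusted p = 0.016). In TE6 CNFN was at 133 and 111 after siBRDT and 67.0 and 85.8 after siTP63 against 46.6 and 45.7 in siCont. Both groups lay above the controls (1.38 ± 0.21, adjusted p = 2.5e-04, and 0.71 ± 0.21, adjusted p = 0.015). The CNFN transcript is the shortest of the 10 (533 bases) and the richest in GC (61.9%), and its values moved with the trend over length and GC content. With that trend removed, the change after siBRDT was 0.36 (adjusted p = 0.087) in KYSE180 and 0.66 in TE6, still called there. After siTP63 it became 0.30 (adjusted p = 0.24) in TE6, and in KYSE180 it turned from -0.10 ± 0.18 (adjusted p = 0.64) to 0.69 (adjusted p = 0.0035). DESeq2 on the recovered reads gave adjusted p-values of 0.067 for siBRDT in KYSE180 and 0.064 for siTP63 in TE6. Without siBRDT replicate 1 the change was 0.51 in KYSE180 and 1.25 in TE6, both called, though neither was without that library and with no filter on low values (adjusted p = 0.11 and 0.071). The call in KYSE180 was lost without siBRDT replicate 2 (0.49) or siCont replicate 3 (0.50), and that after siTP63 in TE6 without either control or without siTP63 replicate 2 (0.53).

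After siTP63 in KYSE180, CNFN was at 169 and 163, between the siCont values of 162 and 196. In RPM, CNFN lay above both controls (9.36 and 11.8) in both siTP63 libraries (14.0 and 14.2). In KYSE150 it was at 70.6 and 199.6 after siTP63 against 101 and 57.7, a spread wider than the change (0.63 ± 0.55, adjusted p = 0.60), and with BRDT-OE at 32.7, 30.4 and 22.5 against 35.2, 24.5 and 32.9 (-0.11 ± 0.24, adjusted p = 0.72). Neither was called, and in both the groups overlapped.

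**Figure D3:**
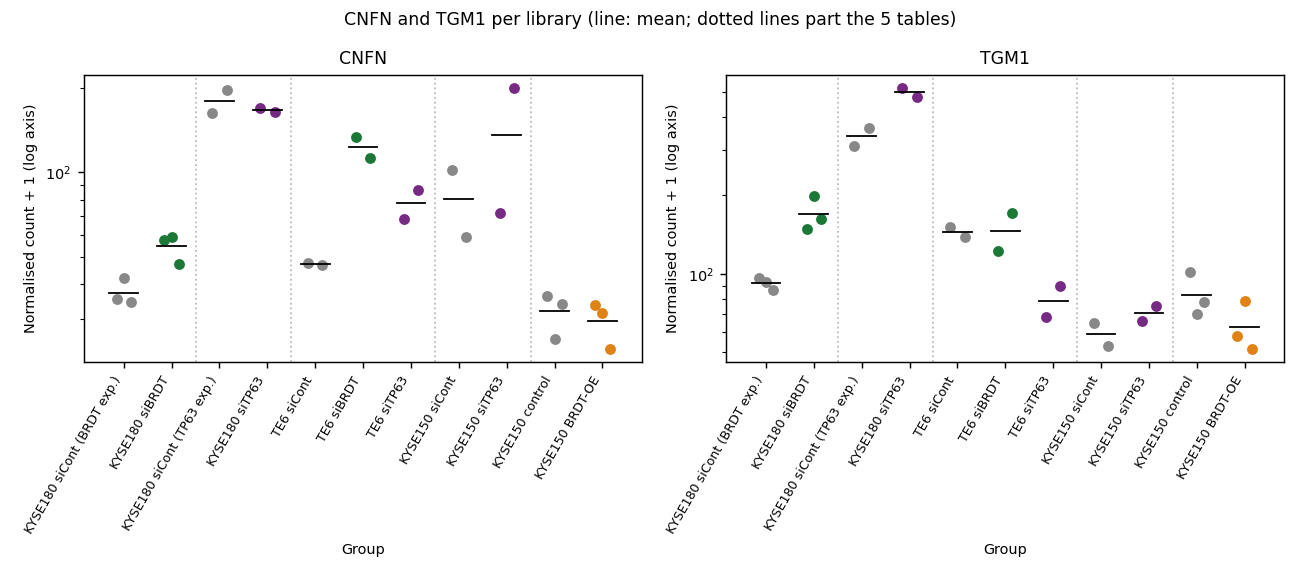
CNFN (left) and TGM1 (right): normalised count + 1 on a log axis for each library (points), with group means (lines) and dotted lines between tables. CNFN lies above the controls after siBRDT (green) in KYSE180 and TE6, and TGM1 lies above them in KYSE180 but not in TE6.

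Counted over the members, 2 of the 6 tested in KYSE180 were called after siBRDT, both up (CNFN, TGM1), where 30.3% of all genes tested were called and 14.5% were called up. In TE6, 2 of 5 were called after siBRDT, both up (CNFN, KRT4), against 33.7% of all genes called and 15.6% called up. After siTP63 in KYSE180, 2 of 6 were called up (KRT4, TGM1) and 1 down (KRT13), against 49.3% of all genes called, 23.6% up and 25.7% down. After siTP63 in TE6, KRT4 and CNFN were called up and KRT13, TGM1 and SPRR1B down, against 38.9% of all genes called, 18.3% up and 20.6% down. Of these 5, SPRR1B passed the filter only through the siBRDT libraries of the table. In a fit of siCont and siTP63 alone it was not tested and SPRR3 was. KRT4, CNFN and SPRR3 were then called up and KRT13 and TGM1 down. SPRR3 in turn reached the filter only through the siTP63 libraries (mean 20.7 against 3.94 in siCont), so its call there is no separate result. After siTP63 in KYSE150 none of 3 was called and 0% of all genes, and with BRDT-OE none of 3, against 26.5% of all genes. At an unadjusted p under 0.05, the count among the 3 was 1 after siTP63 and 0 with BRDT-OE, against 17.8% and 57.4% of all genes. The 1 was KRT13, which passed the filter there only through siCont. None of the 3 was called by edgeR or DESeq2 in either comparison. The median log2 fold change of the members tested, SPRR1B in TE6 included, was 0.12 and 0.66 after siBRDT in KYSE180 and TE6, 0.18, -0.89 and 0.27 after siTP63 in KYSE180, TE6 and KYSE150, and -0.11 with BRDT-OE. Over all genes tested the median lay between -0.039 and 0.017 in the 6 comparisons. With scaling to equal upper quartiles the median of all genes moved to 0.19 in KYSE180 siTP63, while KRT13 and KRT4 kept their calls.

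**Figure D4:**
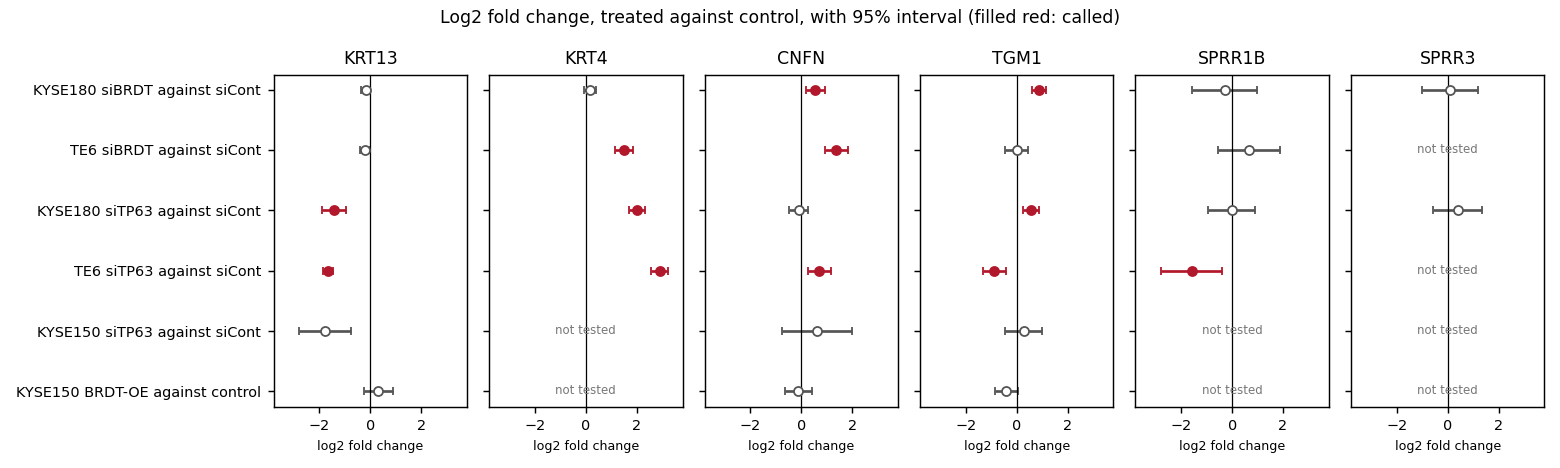
Log2 fold change (x axis) with its 95% interval for the 6 genes tested in at least 1 comparison, in the 6 comparisons (rows); filled red points were called. KRT13 and KRT4 lie on opposite sides of 0 after siTP63 in KYSE180 and TE6, and CNFN and TGM1 differ by line.

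IVL and the 5 SPRR genes were scarcely read in any library. IVL, the classic scaffold of the envelope, had 10 reads or fewer in each of the 26 libraries and at most 2 in those of KYSE150. Summed over IVL and the 5 SPRR genes, the reads were 31, 34 and 43 in KYSE180 siCont and 15, 55 and 65 after siBRDT, 37 and 23 in siCont and 73 and 44 after siTP63, 28 and 32 in TE6 siCont, 53 and 44 after siBRDT, and 62 and 23 after siTP63. In KYSE150 the sum was 0 in both siCont libraries and at most 8 in the others. In RPM, both TE6 siBRDT libraries (4.8 and 4.27) and both TE6 siTP63 libraries (3.58 and 3.03) lay above the TE6 controls (2.17 and 2.45), while in KYSE180 siBRDT replicate 1 (1.52) lay below its controls and replicates 2 and 3 (6.05 and 5.47) above them.

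SPRR1B, which passed the filter in KYSE180 and TE6, was at 1.99 and 4.44 after siTP63 in TE6 against 7.03 and 17.2 in siCont, in reads 3 and 3 against 8 and 20 (log2 fold change -1.59 ± 0.55 SE, adjusted p = 0.030). It reached the filter there only through the siBRDT libraries, its mean over siCont and siTP63 being 7.67, and it was not tested in a fit of these 2 groups alone. Pooled over the libraries of a group, the ratio of RPM was 0.22 (exact 95% interval 0.076 to 0.55). The call was lost with DESeq2 (adjusted p = 0.080), with no filter on low values (adjusted p = 0.070), without siCont replicate 2 (-0.99) and without siTP63 replicate 1 (-1.15). It was not called after siBRDT in TE6 (17.3 and 19.1, both just above the controls, 0.66 ± 0.55, adjusted p = 0.35), or in KYSE180 after siBRDT (2.13, 13.9 and 20.0 against 11, 6.05 and 20.6) or siTP63 (18.4 and 11.9 against 22.0 and 10.3). SPRR3, a precursor abundant in normal esophagus, was at 4.26, 35.9 and 21.8 after siBRDT in KYSE180 against 18.4, 12.9 and 12.7, a group with its lowest library in replicate 1 (0.086 ± 0.52, adjusted p = 0.90). Without that library the change was 0.91 and called (adjusted p = 0.020). After siTP63 in KYSE180 it was at 27.6 and 14.3 against 26.7 and 8.21 (0.39 ± 0.47, adjusted p = 0.49), and here it was called without siCont replicate 1 (1.18, adjusted p = 0.011).

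The members under the filter in TE6 are described by their reads. SPRR3 had 7 and 2 reads in siCont and 29 and 15 after siTP63, a pooled ratio of 5.09 (exact 95% interval 2.45 to 11.9), and 1 and 3 after siBRDT (0.54, 0.12 to 1.94). IVL had 3 and 0 reads in siCont and 9 and 7 after siBRDT (ratio 6.48, 1.86 to 34.7) and 10 and 2 after siTP63 (4.16, 1.12 to 23.0). SPRR2D had 1 and 2 reads in siCont and 8 and 6 after siBRDT (5.67, 1.58 to 30.8). In the fit with no filter on low values, IVL (adjusted p = 0.040) and SPRR2D (adjusted p = 0.045) were called up after siBRDT and SPRR3 (2.30, adjusted p = 0.027) after siTP63. Without siBRDT replicate 1, neither IVL (2.30, adjusted p = 0.32) nor SPRR2D (1.85, adjusted p = 0.11) was called in that fit. SPRR2A, at 9 and 8 reads in siCont, had 16 and 12 after siBRDT (2.0, 1.06 to 3.90) and 15 and 2 after siTP63, and was not called. Stretches of the SPRR2A and SPRR2D transcripts recur in other SPRR2 genes (65.6% and 73.2% of 50-base stretches occur in no other gene), so these 2 are uncertain. SPRR1A, with no read in the TE6 controls, had 3 and 0 after siBRDT and 4 and 0 after siTP63. With BRDT-OE in KYSE150, SPRR1A had 3, 2 and 1 reads against 0 in each control. That is at or under the floor in every library, so no fold is given, and the fit with no filter called it (adjusted p = 0.015).

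**Figure D5:**
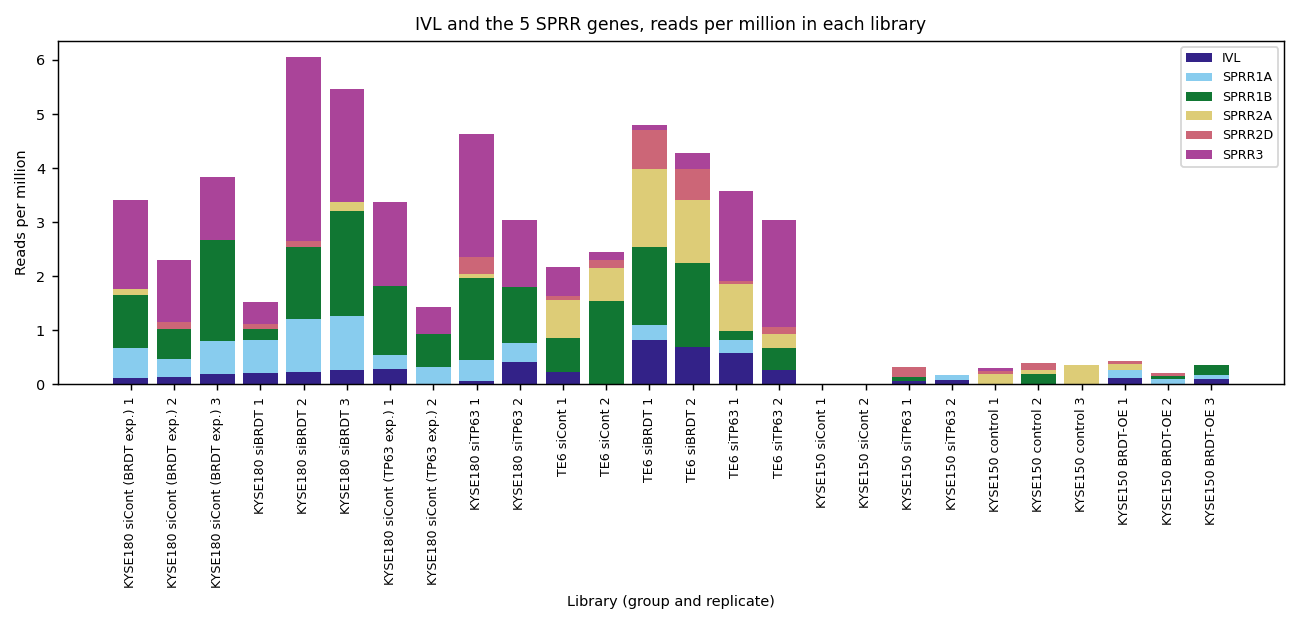
Stacked bars of IVL and the 5 SPRR genes, in RPM, in each of the 26 libraries. The tallest bar is 6.05 RPM, the KYSE150 bars reach at most 0.424, and KYSE180 siBRDT replicate 1 is lower than the other libraries of its group.

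The differences between lines and between knockdowns were tested as contrasts of the fold changes, called at an adjusted p under 0.05 from limma with no limit on size. The siBRDT effect differed between KYSE180 and TE6 for 3 of 5 members, against 41.9% of all genes: TGM1 was higher by 0.88 ± 0.25 (adjusted p = 0.0085) in KYSE180, and CNFN (-0.83 ± 0.28, adjusted p = 0.023) and KRT4 (-1.34 ± 0.20, adjusted p = 6.6e-05) were lower. KRT13 was not called (0.0069 ± 0.13, 95% interval -0.27 to 0.28). For siTP63 the same 3 of 5 members differed between these lines, against 55% of all genes: TGM1 by 1.45 ± 0.27 (adjusted p = 1.6e-04), KRT4 by -0.89 ± 0.24 (adjusted p = 0.0045) and CNFN by -0.81 ± 0.28 (adjusted p = 0.020). These sizes depend on the scaling. In pooled RPM the siTP63 ratios in KYSE180 and TE6 were 2.08 and 0.51 for TGM1 and 5.48 and 7.27 for KRT4. They were 1.30 and 1.56 for CNFN and 0.54 and 0.31 for KRT13. Differences on the RPM scale were not tested. Without KYSE180 siBRDT replicate 1 or TE6 siBRDT replicate 1 the siBRDT differences were 0.97 and 0.64 for TGM1 and -1.44 and -1.605 for KRT4, all called. The CNFN difference after siBRDT was lost without KYSE180 siCont replicate 2 (-0.74), KYSE180 siBRDT replicate 3 (-0.73), TE6 siCont replicate 1 (-0.84) or 2 (-0.81), or TE6 siBRDT replicate 1 (-0.70, adjusted p = 0.079). That after siTP63 was lost without KYSE180 siCont replicate 2 (-0.67), KYSE180 siTP63 replicate 2 (-0.78), TE6 siCont replicate 2 (-0.80) or TE6 siTP63 replicate 2 (-0.63, adjusted p = 0.10). It was also lost with scaling to equal upper quartiles. With the length and GC trend removed, the siBRDT difference of CNFN was -0.30 (adjusted p = 0.37) and that of KRT13 0.34 (adjusted p = 0.0076). For siTP63 with that trend removed, the KRT4 difference was -0.36 (adjusted p = 0.17) and that of CNFN 0.39 (adjusted p = 0.27), while KRT13 differed by 0.93 (adjusted p = 7.7e-05) instead of 0.24. Against KYSE150 no difference in the siTP63 effect was called for the 3 members tested, where 1.62% (KYSE180) and 3.86% (TE6) of all genes were called. For KRT13 the difference was 0.35 (95% interval -0.33 to 1.03) from KYSE180 and 0.11 (-0.46 to 0.68) from TE6. In KYSE150 that gene passed the filter only through siCont.

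Within KYSE180, the siTP63 effect differed from the siBRDT effect for 3 of 6 members, against 65.1% of all genes: KRT13 by -1.25 ± 0.17 (adjusted p = 5.7e-06), KRT4 by 1.84 ± 0.19 (adjusted p = 2.8e-07) and CNFN by -0.65 ± 0.25 (adjusted p = 0.027). The CNFN difference was lost without siCont replicate 3 (-0.60), siBRDT replicate 1 (-0.61) or siBRDT replicate 2 (-0.60) of the BRDT experiment, or without siCont replicate 2 (-0.52), siTP63 replicate 1 (-0.68) or siTP63 replicate 2 (-0.63) of the TP63 experiment. It was also lost with scaling to equal upper quartiles. With the length and GC trend removed it turned to 0.33 (adjusted p = 0.23). Without siBRDT replicate 1 the differences of KRT13 (-1.20) and KRT4 (1.95) were called. The contrast joins 2 experiments with controls of their own. In TE6, siTP63 libraries were set directly against siBRDT libraries, and KRT4, KRT13, TGM1, CNFN and SPRR1B differed, against 39.2% of all genes; SPRR1B reached the filter only through the siBRDT libraries. KRT4 was higher after siTP63 by 1.40 ± 0.16 (adjusted p = 3.6e-05). KRT13 (-1.48 ± 0.092, adjusted p = 3.4e-07), SPRR1B (-2.25 ± 0.55, adjusted p = 0.0067), TGM1 (-0.88 ± 0.21, adjusted p = 0.0054) and CNFN (-0.67 ± 0.21, adjusted p = 0.024) were lower. The CNFN difference was -0.355 (adjusted p = 0.19) with the length and GC trend removed. Without TE6 siBRDT replicate 1 it was not called (-0.54, adjusted p = 0.076), while KRT4 (1.13), KRT13 (-1.48), SPRR1B (-2.32) and TGM1 (-1.13) were, and without TE6 siTP63 replicate 1 those of SPRR1B (-1.82), TGM1 (-0.68) and CNFN (-0.50) were not.

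Other genes of the differentiation programme were read from 6 lists with 137 genes in the tables: further envelope precursors, cross-linking and processing enzymes, further suprabasal keratins, suprabasal and esophageal surface genes, barrier lipid genes, and regulators of suprabasal differentiation. Of those tested, 15 of 60 were called up and 9 down after siBRDT in KYSE180, where 14.5% of all genes were called up and 15.8% down, and 13 of 60 up and 9 down in TE6 (15.6% and 18.1% of all genes). Without the library that stood apart the counts were 15 up and 9 down in KYSE180 and 14 up and 9 down in TE6. After siTP63 they were 27 up and 15 down of 66 in KYSE180 (23.6% and 25.7% of all genes) and 21 up and 10 down of 60 in TE6 (18.3% and 20.6%). With BRDT-OE 6 of 50 rose and 11 fell (10.5% and 16% of all genes), and after siTP63 in KYSE150 none of 46 was called. The counts of single lists given next stand against the same shares of all genes.

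Among the 38 further envelope precursors, 6 to 8 were tested in a comparison. After siBRDT 3 of 7 were called up in KYSE180 (CSTA, HRNR and SCEL) and none down, and in TE6 2 of 6 up (CSTA and SCEL) and 1 down (FLG). CSTA, the protease inhibitor cystatin A, rose in KYSE180 from 480 ± 30.1 to 839 ± 103 (SD, n = 3; log2 fold change 0.80 ± 0.089 SE, adjusted p = 2.6e-06), or by 0.70 without siBRDT replicate 1. After siTP63, 2 of 8 were up (PPL, periplakin, and SCEL, sciellin) and 2 down (CSTA and FLG) in KYSE180, and 4 of 6 up (CSTA, EVPL, PPL and SCEL) and none down in TE6. With BRDT-OE, SCEL (387 ± 57.0 to 141 ± 23.7, n = 3, -1.46), CSTA and PPL fell and ECM1 and FLG rose. FLG, filaggrin, went from 38.4 ± 17.6 to 166 ± 20.8 (2.16 ± 0.26, adjusted p = 1.1e-04). FLG fell in TE6 after siBRDT (227 ± 9.66 to 107 ± 38.0, n = 2, -1.12, adjusted p = 9.9e-04, and -1.49 without siBRDT replicate 1).

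Of the 21 enzymes and inhibitors, 7 to 12 were tested. After siBRDT 1 rose and 3 fell in KYSE180, among them CTSV, the lysosomal protease cathepsin V (1290 ± 80.9 to 536 ± 60.1, n = 3, -1.27, or -1.35 without siBRDT replicate 1), and 1 rose in TE6. After siTP63 1 rose and 5 fell in KYSE180, and 1 rose and 1 fell in TE6, ASPRV1 being the riser in both and PADI3 among the fallers in both. With BRDT-OE 2 rose and none fell. Of the 11 other suprabasal keratins, 2 to 4 were tested. KRT80 rose after siTP63 in KYSE180 from 119 ± 30.0 to 1220 ± 15.5 (n = 2, 3.37 ± 0.17 SE, adjusted p = 3.5e-14) and in TE6 from 235 ± 10.2 to 1354 ± 63.1 (n = 2, 2.52 ± 0.13, adjusted p = 4.9e-08). KRT9 also rose and KRT1 fell in KYSE180 after siTP63, KRT10 fell in KYSE180 after siBRDT, and none was called in the other comparisons.

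Of the 27 surface genes, 8 to 11 were tested. After siBRDT 2 rose and 1 fell in KYSE180 and 4 rose and 2 fell in TE6, including CEACAM5, a surface adhesion glycoprotein (91.5 ± 17.3 to 217 ± 59.7, n = 2, 1.22, or 1.51 without siBRDT replicate 1). After siTP63 5 rose and 3 fell in KYSE180, DMKN (dermokine) falling from 5745 ± 352 to 2319 ± 261 (n = 2, -1.31), and 6 rose and 1 fell in TE6. With BRDT-OE 1 rose and 2 fell. Of the 16 barrier lipid genes, 7 to 11 were tested. UGCG, which makes glucosylceramide, fell after siBRDT in KYSE180 (480 ± 28.1 to 211 ± 12.8, n = 3, -1.18) and TE6 (257 ± 36.3 to 91.2 ± 34.3, n = 2, -1.53), by -1.18 and -1.92 without siBRDT replicate 1. In all, 3 rose and 2 fell in KYSE180 and 1 rose and 2 fell in TE6. After siTP63 5 rose and 2 fell in KYSE180 and 4 rose and 3 fell in TE6. SULT2B1, the cholesterol sulfotransferase, rose in TE6 from 43.6 ± 8.01 to 215 ± 11.6 (n = 2, 2.29), and ELOVL4, a fatty acid elongase, fell from 148 ± 0.29 to 81.5 ± 8.57 (n = 2, -0.86). With BRDT-OE none of 8 was called.

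Of the 24 regulators, 14 to 21 were tested. After siBRDT 6 rose and 2 fell in KYSE180, and 5 rose and 4 fell in TE6. Of the fallers in TE6, without siBRDT replicate 1, GRHL2 (-0.46) and GRHL3 (-0.49) were under the limit on size. EHF (-0.62) and GRHL1 (-0.83) were not. KLF4, a transcription factor of late epidermal differentiation, rose in TE6 (108 ± 9.56 to 303 ± 5.76, n = 2, 1.48, or 1.5 without siBRDT replicate 1). After siTP63 in KYSE180 12 of 21 rose and 2 fell, against 23.6% and 25.7% of all genes, EHF rising from 203 ± 31.1 to 1146 ± 50.6 (n = 2, 2.50) and FOSL1, an AP-1 subunit, falling from 248 ± 27.2 to 56.2 ± 2.50 (n = 2, -2.12). In TE6 5 rose and 5 fell. With BRDT-OE 1 rose and 6 fell: FOSL1 from 2417 ± 370 to 5830 ± 395 (n = 3, 1.28) and ELF3, an epithelial ETS factor, from 1101 ± 101 to 274 ± 76.0 (n = 3, -2.04).

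Of 19 interferon-response genes tested, 4 rose and 2 fell after siBRDT in KYSE180 (3 and 2 without replicate 1), where 14.5% and 15.8% of all genes did. In TE6 18 of 19 rose after siBRDT (19 without replicate 1) and 13 after siTP63, against 15.6% and 18.3% of all genes. All 19 rose after siTP63 in KYSE180, against 23.6%, and 11 of 16 fell with BRDT-OE, against 16%. None of 13 was called after siTP63 in KYSE150. Of the 10 squamous markers, TP63 among them, 7 fell after siBRDT in KYSE180 (6 without replicate 1) and 5 in TE6, against 15.8% and 18.1% of all genes. After siTP63, 6 fell in KYSE180 and 8 in TE6, against 25.7% and 20.6%. Each of these counts includes TP63, which siTP63 targets, so that part of the siTP63 counts was fixed in advance. None of 9 was called after siTP63 in KYSE150. With BRDT-OE 2 rose and 1 fell of 9, against 10.5% and 16% of all genes. The columnar markers gave 1 or 2 tested genes in KYSE180 and TE6 and none in KYSE150, with no call, save 1 up after siBRDT in TE6 without replicate 1. The part of these lists in the values of the 10 genes was not tested. Of the markers of other cells, the summed level over 9 fibroblast genes lay between 3.8 and 121 RPM, mostly COL1A1, that over 8 immune cell genes between 6.86 and 113 RPM, most of it CD68, and that over 5 endothelial genes between 0.88 and 12.8 RPM. In KYSE180 siCont against siTP63 the fibroblast sum was 36.2 to 40.0 against 68.9 to 80.3 RPM and the endothelial sum 2.17 to 3.54 against 11.8 to 12.8 RPM (FAP at 0 in siCont, and DCN, POSTN and KDR at 0 after siTP63), while the immune cell sum was 29.6 to 32.2 against 14.6 to 17.1 RPM (PTPRC at 0 after siTP63). CD68 was called down after both knockdowns in both KYSE180 and TE6, by up to -2.26 after siTP63 in TE6. ITGAM, also an immune cell gene, was called up after siTP63 in KYSE180 and down with BRDT-OE. VWF was called up after siTP63 in KYSE180 and TE6, and CLDN5 down after siTP63 in KYSE180. COL3A1 was called up after siBRDT in KYSE180, and COL1A1 down with BRDT-OE. The part of these markers in the results was not tested.

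Over the 26 libraries, the deviations of log2(value + 1) from the table mean showed little common movement among the 3 members tested in every table: Pearson's r was 0.35 for TGM1 with CNFN, 0.067 for TGM1 with KRT13 and -0.16 for CNFN with KRT13. The libraries share controls, lines and tables, and these values are descriptions. Among 8265 genes outside the lists with a mean of at least 100 in each table, those most like the mean of these 3 members' scaled deviations were DHRS13 (r = 0.84), AXIN1 (0.78), EMP2 (0.78), LRFN4 (0.77) and BOLA1 (0.77), over 26 libraries. As the 3 members moved little together, that mean is no shared pattern. The genes were picked by the r printed here, so these values are no evidence of common regulation.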

How the data were processed

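RNA-seq of 26 libraries from 3 established ESCC lines was read from 5 tables of the values deposited by the authors. Libraries had been made with a TruSeq V2 kit, which does not mark strand. The submitters' processing notes name STAR 2.6.0, HTSeq 0.11.2, DESeq2 1.24.0 and hg38. The deposited signal is the read count divided by a DESeq2 size factor of its table, and the counting options are not given in the sources used here. Whole reads were recovered by dividing by the value of 1 read (100% of values whole within 0.01), giving RPM and RPKM on GENCODE 44 lengths.

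Within each table, log2(value + 1) of genes with a mean of at least 10 was fitted with limma 3.58.1 (R 4.3.3, empirical Bayes with trend, no replicate block), the 3 TE6 groups in 1 fit. Contrasts of fold changes were fitted over the tables concerned. Adjusted p-values are Benjamini-Hochberg over all genes tested. Alternatives were a pseudocount of 0.1, no filter, equal upper quartiles, a replicate block, removal of a trend over transcript length and GC content (known for 87.4% of genes), count tests of the recovered reads (edgeR 4.0.16, DESeq2 1.42.0), no limit on fold change, 2 groups only in TE6, and leaving out each library.

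The members, the lists of related genes, and the interferon and cell type lists (squamous, columnar, fibroblast, immune, endothelial) were chosen with earlier results of these data known. Besides the members and both targets, the text names the 2 largest rises and falls per comparison among the related genes that were called, had a mean of at least 100 and did not overlap between groups, and the 5 genes most like the members; a gene named by this rule is not reported here. Other genes named within list counts were chosen after their values were seen. Deviations of same-numbered libraries from their group means correlated at -0.703 in KYSE150 siTP63 and between -0.0836 and 0.178 elsewhere. The values of 0.178 and 0.153 were both from the KYSE180 BRDT experiment. A replicate block was used as an alternative only.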

Additional observations from a re-analysis of the deposited data

Results flagged for a closer look

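The fold changes of 5 members differed between lines or between knockdowns by the limma contrast (adjusted p under 0.05). Of all genes, 41.9% (siBRDT) and 55% (siTP63) differed between KYSE180 and TE6. Between knockdowns, 65.1% differed in KYSE180 and 39.2% in TE6. SPRR1B reached the filter in TE6 only through the siBRDT libraries, and each CNFN difference was lost in several alternative settings. For siBRDT in KYSE180 against TE6, the difference in log2 fold change was 0.88 for TGM1, -0.83 for CNFN and -1.34 for KRT4. For siTP63 between the same lines it was 1.45 for TGM1, -0.81 for CNFN and -0.89 for KRT4. For siTP63 against siBRDT it was -0.65 for CNFN, -1.25 for KRT13 and 1.84 for KRT4 in KYSE180, and -2.25 for SPRR1B, -0.88 for TGM1, -0.67 for CNFN, -1.48 for KRT13 and 1.40 for KRT4 in TE6. TGM1 thus moved in opposite directions after siTP63, up in both KYSE180 libraries and down in both TE6 libraries relative to their controls. The KYSE180 control libraries of both experiments had unequal levels of TP63 and of KRT13, and the part of that in the differences was not tested.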

How the results depend on the processing

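Of the counts of members, 222 values over the alternatives stayed within 1.5 times and 26 moved. Of the single members' values, 534 kept direction and side of the threshold, 45 lost a call, 10 gained one and 36 changed sign. This tally leaves out differences between fold changes that were not called, save those of KRT13. Among the ones left out, the siTP63 difference of SPRR1B between KYSE180 and TE6 (1.56) was called in 3 alternatives. That of CNFN between KYSE180 and KYSE150 was called in 1, and that of TGM1 between TE6 and KYSE150 in 1. With the length and GC trend removed, 1 member was called up after siBRDT in KYSE180, 1 down after siBRDT in TE6, 1 up after siTP63 in TE6 and 1 down after siTP63 in KYSE150, and 1 differed between TE6 and KYSE150 for siTP63. Over all genes, the calls in the same directions in the first 4 of these comparisons were 1747 of 12554, 1727 of 12343, 1953 of 12343 and 453 of 11376. With the replicate block and the trend removal together, the counts were 1, 1 and 1 in the first 3 of these and 4 up after siTP63 in KYSE180. DESeq2 gave 1 up after siBRDT in KYSE180 and 1 up after siTP63 in TE6, where it called 1869 of 13589 and 2188 of 13333 genes up. With no filter, 4 were up after siBRDT in TE6 and 1 up with BRDT-OE. The shares of all genes with no filter, with block and trend removal together, or without 1 library are not given here. Those counts describe only how the calls depend on the setting. With no filter and without siBRDT replicate 1, a setting chosen after seeing the data, 1 was up after siBRDT in KYSE180 and 1 in TE6, and SPRR1B in KYSE180 (0.53) and TGM1 in TE6 (0.24) changed sign.

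Leaving out 1 library, the count of members up lay between 1 and 3 for siBRDT in KYSE180, 1 and 2 for siTP63 in KYSE180, and 1 and 2 for siTP63 in TE6, where the count down lay between 1 and 3. The count that differed lay between 2 and 5 for siTP63 against siBRDT in TE6, and between 0 and 1 for siTP63 in KYSE180 against KYSE150, the 1 arising without KYSE150 siTP63 replicate 1.

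Signs turned mostly near 0. For SPRR1B in KYSE180 the change was 0.059 after siBRDT with edgeR, and after siTP63 it was 0.16 with equal upper quartiles, 0.66 with the trend removed (with or without the replicate block) and 0.056 with edgeR. TGM1 after siBRDT in TE6 was 0.033, 0.021 and 0.034 with equal upper quartiles, edgeR and DESeq2. CNFN after siTP63 in KYSE180 was 0.090 with equal upper quartiles and 0.69 with the trend removed (with or without the block), and with BRDT-OE 0.087 with the trend removed (with or without the block). With the trend removed, the CNFN difference was 0.39 for siTP63 in KYSE180 against TE6 and 0.33 for siTP63 against siBRDT in KYSE180, and the KRT13 difference was -0.20 for siTP63 in TE6 against KYSE150. The KRT13 difference for siBRDT in KYSE180 against TE6 was -0.0067 with equal upper quartiles. The cause was not tested.

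Leaving out 1 library, values that turned lay between -0.84 and 0.53 (SPRR1B) and between -0.50 and 0.91 (SPRR3) after siBRDT in KYSE180, and after siTP63 in KYSE180 between -0.54 and 0.49 (SPRR1B), -0.41 and 1.18 (SPRR3) and -0.24 and 0.033 (CNFN). They lay between -0.25 and 0.24 for TGM1 after siBRDT in TE6, and for CNFN between -0.11 and 1.375 after siTP63 in KYSE150 and between -0.26 and 0.046 with BRDT-OE. The KRT13 differences lay between -0.073 and 0.081 for siBRDT in KYSE180 against TE6 and between -0.16 and 0.38 for siTP63 in TE6 against KYSE150.

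The replicate block alone changed no count of members: with it, 2 were up after siBRDT in KYSE180 and in TE6, 2 up and 1 down after siTP63 in KYSE180, and 2 up and 3 down in TE6. Over all genes in KYSE150 siTP63 it gave 89 up and 48 down against 0 without it. There same-numbered libraries correlated at -0.703, and a crossed pairing, chosen after seeing the data, gave 1626 genes up and 1774 down, with 1 member up and 1 down. Equal upper quartiles moved the share of calls that were up over all genes to 63.2% in KYSE180 siTP63 (47.9% as reported) and to 26% with BRDT-OE (39.7% as reported). Depth limits IVL and the SPRR genes, whose counts per library were mostly under 30 reads.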
